A study of Mus musculus with 7 samples.

Results

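The genes described are Pira2 and its relatives among the paired and leukocyte immunoglobulin-like receptors, in spleen RNA of mice with and without the formyl peptide receptor gene Fpr2. Of 7 genes listed by symbol (Pira2, Pira6, Pira7, Pirb, Lilra5, Lilra6 and Lilrb4a), 5 were found among the 55414 genes of the count table. Pira6 and Pira7 are not symbols of the GENCODE M21 annotation used to name the genes, and no value is given under these names. Whether they are among the Gm-named genes of the cluster described below was not determined. All 5 genes found had enough reads to be tested. The list was chosen by the comparison of the genotypes in these same libraries, since Pira2 had been called lower there, with its relatives taken by name. The genotype values of the listed genes are therefore descriptions.

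The WT group held 3 spleen libraries whose genotype label is C57BL/6N, and the Fpr2KO group held 4 spleen libraries labelled Fpr2KO, with no treatment named. The strain background of the Fpr2KO mice, and the age and sex of all mice, are not given in the sources used here. PolyA RNA was sequenced and deposited as read counts per gene, with 14968605 to 18692809 counts per library. Levels are given as CPM, the counts of a gene relative to the library's total, after TMM scaling, which adjusts totals for differences in composition. Reads of Fpr2, the gene removed, numbered 537, 479 and 477 in WT and 0 in all 4 Fpr2KO libraries. Its WT level was 32.2 ± 3.4 CPM (SD, n = 3; exact two-sided permutation test, p = 0.0286, the smallest that 35 splits allow). Spleen markers were present in every library, with summed B cell markers at 3264 to 3690 CPM and summed red pulp macrophage markers at 4126 to 5148 CPM. Fpr2KO replicates 1 and 2 stood apart in pancreatic acinar transcripts, at 815.9 and 460.9 CPM summed over 10 genes against 22.8 to 47.1 CPM in the other 5 libraries.

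Paired immunoglobulin-like receptors are surface proteins of myeloid cells and B cells that come in activating and inhibitory forms with near-identical outer parts. The activating PIR-A proteins have short tails and signal through the Fc receptor gamma chain, which carries an ITAM motif. The single inhibitory PIR-B carries ITIM motifs that recruit the phosphatases SHP-1 and SHP-2, and both forms bind MHC class I molecules. The Pira and Pirb genes lie side by side in the leukocyte receptor complex of mouse chromosome 7, and mouse Lilrb4a (gp49B) and its neighbour Lilr4b (gp49A) lie on chromosome 10.

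Because close copies can exchange reads in counting, sequence was compared before any level. Pira2 (ENSMUSG00000089942) lies at chr7:3836812-3845051 on the minus strand of GRCm38. Its nearest copy is Gm15922 at chr7:3731630-3739889, also on the minus strand, which GENCODE types as a polymorphic pseudogene and RefSeq names Pira1. Their transcripts are both 3462 bases long and differ at 17 bases, all in the coding part, an identity of 99.5%. The longest stretch without a difference runs for 1727 bases. The stretch below is the 90 bases of exon 3 of Pira2 (bases 279 to 368 of the transcript, chr7:3844349-3844438) with 7 of those 17 differences, and it is shown because these differences lie close together there. The other 10 lie elsewhere in the coding part, and windows specific to Pira2 are also found around some of them. Capitals mark bases that differ from Pira2 at the same place, and each sequence is read 5′ to 3′ on the minus strand.
Pira2: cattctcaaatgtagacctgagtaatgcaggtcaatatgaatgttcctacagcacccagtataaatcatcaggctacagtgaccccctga
Gm15922: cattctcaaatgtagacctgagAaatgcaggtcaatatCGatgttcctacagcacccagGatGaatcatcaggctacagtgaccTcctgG
Gm15448: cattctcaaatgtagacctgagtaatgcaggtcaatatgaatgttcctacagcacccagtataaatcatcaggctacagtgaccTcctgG
Pirb: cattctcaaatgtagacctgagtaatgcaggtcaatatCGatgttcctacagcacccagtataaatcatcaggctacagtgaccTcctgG
Gm14548: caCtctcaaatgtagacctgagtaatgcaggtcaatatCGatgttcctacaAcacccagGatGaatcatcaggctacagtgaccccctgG
Lilra6: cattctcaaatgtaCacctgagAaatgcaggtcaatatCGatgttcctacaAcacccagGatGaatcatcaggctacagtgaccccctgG
In this stretch Gm15448 differed from Pira2 at 2 bases, Pirb at 4, Gm15922 and Gm14548 at 7 each and Lilra6 at 8. The Gm15922 copy lies at chr7:3739187-3739276, the Gm15448 copy at chr7:3824967-3825056, the Pirb copy at chr7:3719652-3719741, the Gm14548 copy at chr7:3897410-3897499 and the Lilra6 copy at chr7:3914804-3914893. Of the genes shown, the closest in this stretch was thus Gm15448, whereas over whole transcripts the closest copy was Gm15922. Other copies of the cluster were not compared in this stretch.

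Only 13.5% of the 100-base windows of the Pira2 transcript occur in no other gene, and 74.0% occur in Gm15922. Windows of Pira2 were also found in Gm14548 (25%) and in Pirb (15.4%). The share specific to Pira2 was 6.0% with 50-base windows and 21% with 150-base windows. The read length and the treatment of reads that fit several genes are not given in the sources used here, so the split of reads between Pira2 and Gm15922 is uncertain. Windows found in no other gene made up 0.0% of Lilrb4a, all of whose windows occur in an overlapping read-through gene, 20.8% of Gm15922, 48.1% of Gm14548, 68.3% of Gm15448, 75.3% of Pirb, 88.1% of Lilr4b and 91.5% of Lilra6, and no window of Lilra5 was shared.

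**Figure D1:**
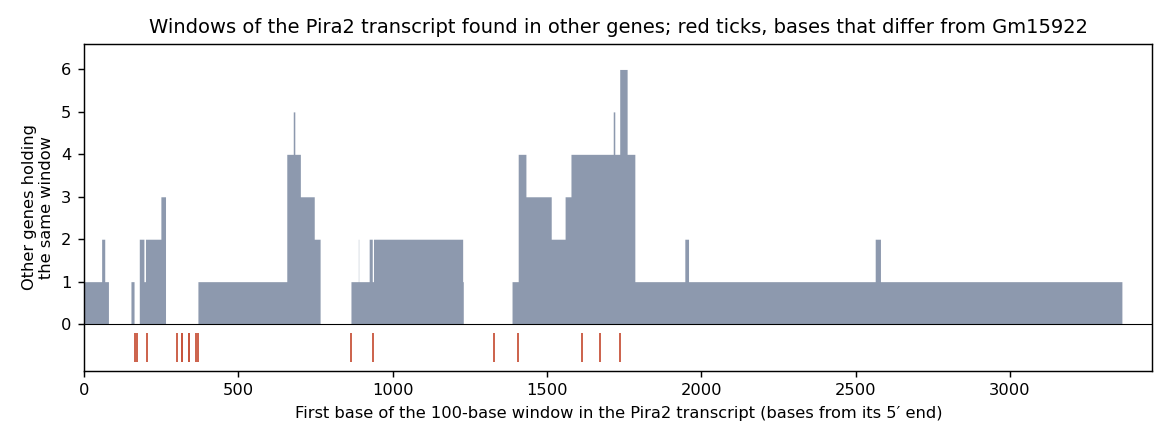
Number of other genes that hold each 100-base window of the Pira2 transcript (vertical axis, genes) by the window's first base (horizontal axis, bases from the 5′ end). Red ticks below 0 mark the 17 bases that differ from Gm15922. Gaps at 0 are the 13.5% of windows specific to Pira2, and all lie in the 5′ part, before the stretch of 1727 bases without a difference.

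Coding lengths, like the windows above, were read from a single transcript per gene, the longest one of its type. Other transcripts of a gene may code over other lengths. The Pirb coding sequence spans 2523 bases, against 2040 bases in each of Pira2 and Gm15922. In the transcripts used, Lilra6, which RefSeq also lists as Pira3, codes over 969 bases, Lilra5 over 885 bases and Lilrb4a over 1005 bases. The Lilra6 transcript used has 2281 bases, while the annotated exons of the gene hold 3050. Over aligned transcript sequence, Pira2 was 96.9% identical to Pirb and 95.2% identical to Lilra6. Lilra5 and Lilrb4a were far more distant, with 72.0% identity over 585 aligned bases and 71.2% over 548.

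The WT libraries held 567, 566 and 462 reads of Pira2, and the Fpr2KO libraries 252, 287, 290 and 340. Scaled, these were 38.0, 37.1 and 28.4 CPM in WT and 14.8, 15.4, 17.2 and 17.7 CPM in Fpr2KO. Every Fpr2KO library lay below every WT library, with a gap between the lowest WT and the highest Fpr2KO library. The means were 34.5 ± 5.28 CPM (SD, n = 3) and 16.3 ± 1.39 CPM (SD, n = 4), so that the Fpr2KO level was 47.2% of the WT level. The log2 fold change was -1.08 (SE 0.13), with an adjusted p of 0.0201 in edgeR's quasi-likelihood test over all 16089 genes tested. This is the value that put Pira2 on the list, and 1 of the 5 genes found was called, beside 0.0373% of all genes tested (6 genes, all lower in Fpr2KO). Nothing is read from that count.

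The fold change moved little when libraries were dropped, but the call was mostly lost. Leaving out 1 library at a time gave log2 fold changes of -1.20 to -1.01, and the adjusted p of edgeR stayed under 0.05 only without WT replicate 3, at 0.00704. Without any other single library it ran from 0.0611 to 0.14. Without both Fpr2KO replicates with acinar transcripts, the log2 fold change was -0.98 (edgeR adjusted p = 0.325).

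**Figure D2:**
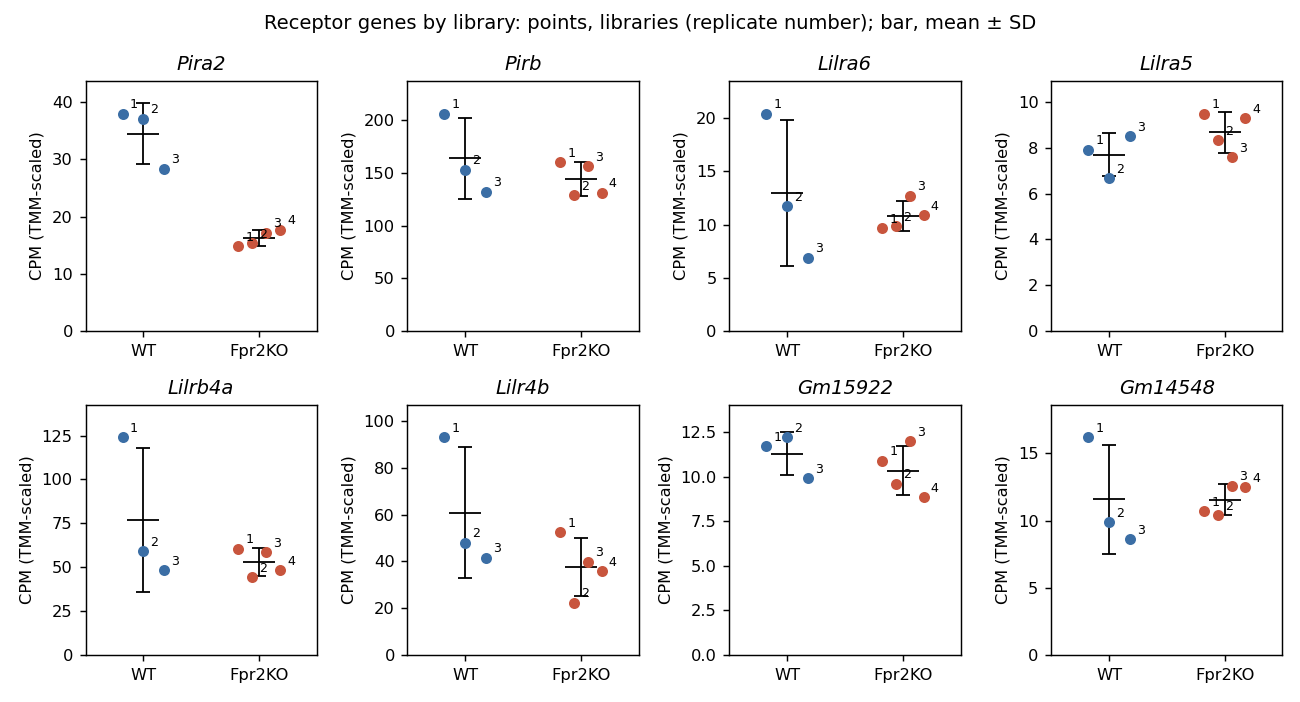
TMM-scaled CPM (vertical axis, from 0) of 8 receptor genes in the 3 WT and 4 Fpr2KO libraries. Points are libraries with their replicate number, and bars are the mean ± SD. The groups are apart for Pira2 (28.4 CPM or more against 17.7 CPM or less) and overlap for the other 7 genes.

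Within each library, the reads of Pira2 were also set against those of its copies, which removes the scaling between libraries. Pira2 took 12.5%, 15.9% and 14.5% of the reads of the 9 genes from Pirb to Lilra6 in WT, and 6.87%, 8.29%, 7.81% and 9.33% in Fpr2KO. For each read of Gm15922 there were 3.24, 3.04 and 2.87 reads of Pira2 in WT and 1.35, 1.60, 1.44 and 2.00 in Fpr2KO. Neither ratio overlapped between the groups. Both ratios reuse the Pira2 counts that put it on the list, so they describe that difference again and are no separate check of it. Gm15922 itself was at 11.7, 12.2 and 9.91 CPM in WT and at 10.9, 9.60, 12.0 and 8.86 CPM in Fpr2KO, with a log2 fold change of -0.12 (SE 0.15). The groups overlapped for Gm15922, the gene that shares most windows with Pira2.

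**Figure D3:**
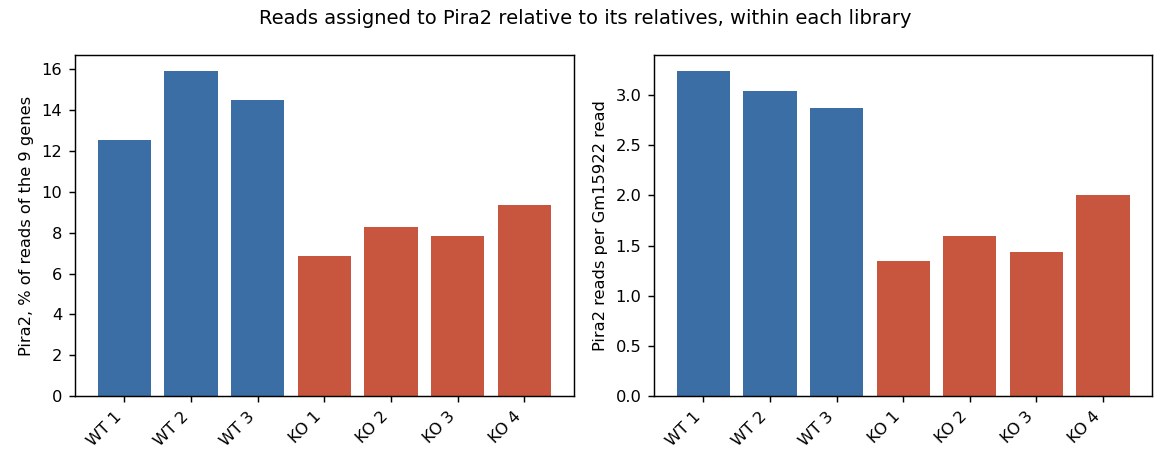
Left, Pira2 as a percent of the reads of the 9 genes from Pirb to Lilra6; right, Pira2 reads per Gm15922 read, both from 0, with 1 bar per library. On both axes the 3 WT bars (blue) are higher than the 4 Fpr2KO bars (red), at 12.5% or more against 9.33% or less on the left.

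The reads of Pira2 were also summed with those of copies, so that an exchange of reads within a sum would leave that sum unchanged. As 1 feature, Pira2, Pirb and Gm15922 were at -0.30 on the log2 scale (SE 0.14; adjusted p of edgeR 1.0). All 9 genes from Pirb to Lilra6 gave -0.27, and the 8 other than Pira2 gave -0.17, and neither sum was called. The sums of 9 and of 8 genes were added after seeing the data. In WT, Pirb held on average 66.9% of the reads of the 9 genes and Pira2 14.3%. The sums with Pira2 thus mostly follow Pirb and cannot show whether Pira2 itself differed. The sum with Pirb and Gm15922 leaves out Gm14548, which also shares windows with Pira2. Pira2 with Gm15922 alone was not summed.

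Pirb (ENSMUSG00000058818, chr7:3711409-3720391, minus strand), the inhibitory receptor, had the highest CPM of the genes. It was at 206, 153 and 132 CPM in WT and at 160, 129, 156 and 131 CPM in Fpr2KO. The groups overlapped, and WT replicate 1 stood above all others. The means were 164 ± 37.8 CPM (SD, n = 3) and 144 ± 16.4 CPM (SD, n = 4), with a log2 fold change of -0.19 (SE 0.15). Without WT replicate 1 it was 0.01.

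Lilra6 (ENSMUSG00000030427, chr7:3908280-3915503, minus strand), an activating-type receptor of the same cluster, was at 20.4, 11.7 and 6.89 CPM in WT and at 9.65, 9.82, 12.7 and 10.9 CPM in Fpr2KO. The WT libraries enclosed the whole Fpr2KO range, and WT replicates 1 and 3 were the highest and lowest of all. The log2 fold change was -0.27 (SE 0.32), and 0.22 without WT replicate 1. Lilra5 (ENSMUSG00000070873, chr7:4237754-4243463, plus strand), an activating receptor of monocytes and neutrophils in humans, lies farther along the chromosome and shares no window with another gene. It was at 7.91, 6.68 and 8.49 CPM in WT and at 9.48, 8.32, 7.58 and 9.28 CPM in Fpr2KO. Its groups overlapped, and its log2 fold change of 0.17 (SE 0.15) was the only positive one among the 5 genes.

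Lilrb4a (ENSMUSG00000112148, chr10:51490956-51496611, plus strand), the inhibitory gp49B, was at 124, 59.0 and 48.3 CPM in WT and at 60.5, 44.4, 58.5 and 48.2 CPM in Fpr2KO. The log2 fold change was -0.54 (SE 0.34), and -0.02 without WT replicate 1, the 1 library that stood far above the other 6. All windows of Lilrb4a also occur in Gm49339, a read-through gene of Lilrb4a and Lilr4b in GENCODE M21, which held 0 to 3 reads per library. Lilr4b (chr10:51480632-51486703, plus strand), the gp49A gene next to it, was at 93.0, 48.0 and 41.5 CPM in WT and at 52.5, 22.3, 39.9 and 35.9 CPM in Fpr2KO. Its groups overlapped as well, with a log2 fold change of -0.69 (SE 0.39).

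Over the 5 genes found, 4 log2 fold changes were below 0 and 1 above, with a median of -0.27, where 51.4% of all genes tested were below 0 and their median was 0.0. Groups without overlap were seen in 1 of the 5, beside 5.91% of all genes tested (3.18% lower in Fpr2KO and 2.73% higher). The 4 genes other than Pira2 were not called in any of the 15 alternative settings.

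**Figure D4:**
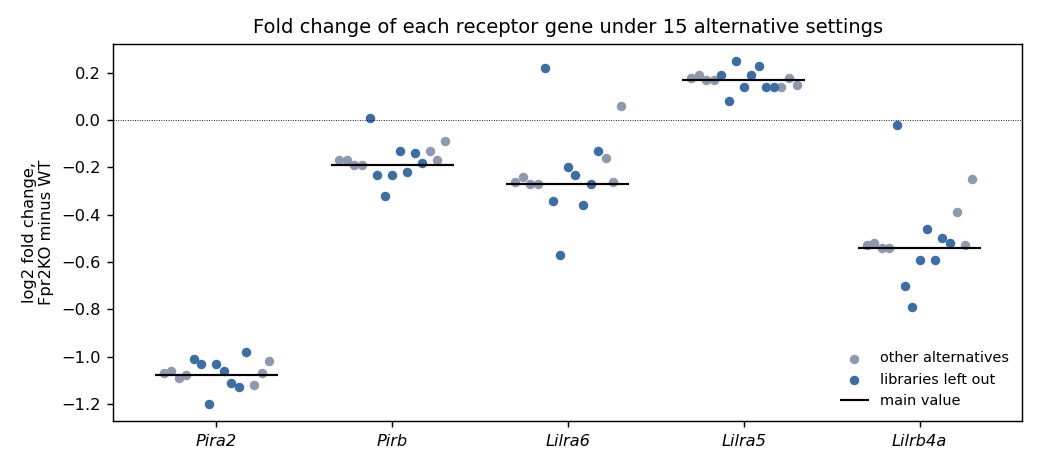
Log2 fold change, Fpr2KO minus WT (vertical axis), of the 5 genes under 15 alternative settings; blue points leave out libraries, grey points change the scaling, filter or test, and black lines are the values reported. Pira2 stays between -1.20 and -0.98, while Pirb and Lilra6 cross 0 when WT replicate 1 is left out, at 0.01 and 0.22.

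Levels per kilobase were taken over all annotated exons of a gene, 4471 bases in Pirb and 5227 in Lilrb4a. The transcripts used above have 3824 and 1381 bases, and the order of the genes may differ with those lengths. The genes also differ in their share of windows found in no other gene, so the order describes only the reads assigned. Per kilobase of exon, the order of levels in WT was led by Pirb at 36.6 ± 8.45 CPM per kb (SD, n = 3), above the 14.7 ± 7.8 of Lilrb4a by more than their spreads. Lilrb4a, Lilr4b (11.2 ± 5.15) and Pira2 (9.97 ± 1.53) followed and did not differ beyond their spreads. Gm14548 (5.44 ± 1.91), Lilra6 (4.26 ± 2.24), Lilra5 (3.65 ± 0.438), Gm15448 (3.42 ± 0.866) and Gm15922 (3.26 ± 0.348) formed a lower group whose neighbours overlapped in their spreads. Gm15925 was lowest of the tested genes at 1.41 ± 0.284. In Fpr2KO, Pira2 was at 4.70 ± 0.401 CPM per kb (SD, n = 4), with Lilr4b at 6.92 ± 2.29 and Gm14548 at 5.41 ± 0.541, and these 3 did not differ beyond their spreads. In Fpr2KO the other 3 Pira-type genes Lilra6, Gm15448 and Gm15922 were at 3.53 ± 0.456, 3.30 ± 0.403 and 2.99 ± 0.399.

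Likeness between the receptor genes was measured over the 7 libraries. Pearson's r between log2 CPM profiles was 0.97 for Pirb and Lilrb4a, 0.90 for Pirb and Lilr4b and 0.83 for Pirb and Lilra6, all of which were highest in WT replicate 1. Pira2 correlated at 0.64 with Lilr4b, 0.57 with Lilrb4a, 0.49 with Pirb, 0.46 with Gm15922 and 0.37 with Lilra6, and negatively with Lilra5 (-0.63). These values are descriptions, since all genes share the same 7 libraries and Pira2 was chosen for its group difference. Of genes averaging 1 CPM or more, the profiles most like that of Pira2 were those of Gpi1 (r = 0.985), Ptger2 (0.978), Lin28a (0.975), Tdrkh (0.973) and Hk3 (0.967). Gpi1 encodes a glycolytic enzyme, Ptger2 a prostaglandin E2 receptor, Lin28a an inhibitor of let-7 processing and Hk3 a hexokinase of myeloid cells, and none of the 5 was called.

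Whether the genes next to Pira2 were also called was looked at in the same fit. Of the 9 genes from Pirb to Lilra6, 7 were tested, and of the 6 other than Pira2, none was called by edgeR and 0 had an unadjusted p under 0.05. DESeq2 also called none of the 5 listed genes other than Pira2. The lower coordinate of Gm15448 lies 20.0 kb from that of Pira2. Gm15448 had a log2 fold change of -0.05 (SE 0.19), Gm14548 one of -0.01 (SE 0.21) and Gm15925 one of 0.12 (SE 0.23). Of 17 further tested genes up to 300 kb beyond the cluster on either side, edgeR called 0, and 2 had an unadjusted p under 0.05. These were Lair1, an inhibitory collagen receptor, at 0.35 (SE 0.08; edgeR adjusted p = 0.479), and Tarm1, an activating receptor of myeloid cells, at -1.38 (SE 0.35; edgeR adjusted p = 0.593). Next by p were Leng1 at -0.26 and Leng8 at 0.20.

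**Figure D5:**
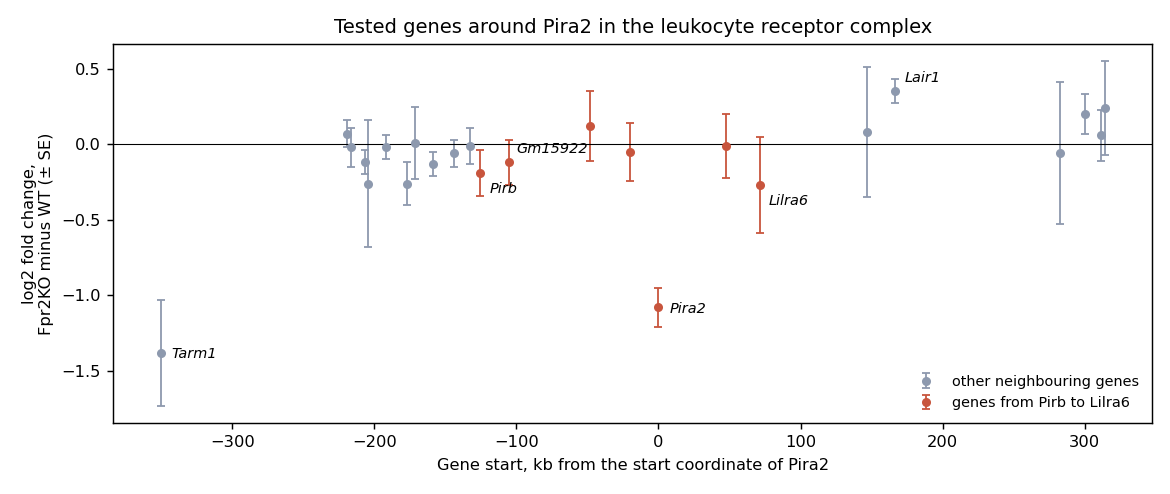
Log2 fold change, Fpr2KO minus WT, with its SE (vertical axis) of the tested genes around Pira2. The horizontal axis is the distance of each gene's start coordinate, the lower one on either strand, from that of Pira2 in kb. Red points are the 7 tested genes from Pirb to Lilra6. Pira2 at -1.08 lies below the other 6, which run from -0.27 to 0.12, and among the grey neighbours Tarm1 is lowest at -1.38.

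The promoters of these genes were set side by side to show what the copies share upstream of their starts. Each sequence below is 110 bases of the RefSeq promoter (GRCm38.p6, minus strand, 5′ to 3′) from a shared GAGGAA. Capitals mark each match, on either strand, to GAGGAA, a core of the sites bound by PU.1, the Ets family factor of myeloid and B cells.
Pira2: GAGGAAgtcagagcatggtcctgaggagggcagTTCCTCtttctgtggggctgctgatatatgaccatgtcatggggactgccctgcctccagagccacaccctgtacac
Pira1: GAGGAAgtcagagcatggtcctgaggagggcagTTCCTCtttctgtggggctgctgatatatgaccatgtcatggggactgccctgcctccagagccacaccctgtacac
Pirb: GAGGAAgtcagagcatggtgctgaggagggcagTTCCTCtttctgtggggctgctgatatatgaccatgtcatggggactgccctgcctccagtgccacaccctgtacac
Lilra6: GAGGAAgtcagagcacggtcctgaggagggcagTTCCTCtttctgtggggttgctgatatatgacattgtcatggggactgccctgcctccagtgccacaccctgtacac
The Pira2 stretch lies at chr7:3845090-3845199, the Pira1 stretch at chr7:3739928-3740037, the Pirb stretch at chr7:3720393-3720502 and the Lilra6 stretch at chr7:3915542-3915651. Pira1 (Gm15922) differed from Pira2 at 0 of the 110 bases, Pirb at 2, Lilra6 at 5 and Gm14548 at 7. The full 110 bases were not found before the RefSeq start of Gm15448, whose 159 aligned promoter bases were 96.9% identical to those of Pira2. The 3 matches nearest that start had the same spacing and strands as the 3 of Pira2. A stretch of 110 bases from the same match would run past the start of Gm15448. The shared sequence is thus not shown to be missing from this copy. The stretch begins 148 bases before the RefSeq start of Pira2 and 120 bases before the RefSeq start of Pira1, which lies upstream of the GENCODE start given for Gm15922 above. In the 250 bases before the start, Pira2, Pira1, Pirb and Lilra6 each held 3 matches, as did Gm14548, while Gm15448 held 4, Lilra5 held 1 and Lilr4b held 0. The motif was found in 23.3% of the 32851 promoters of that length, and a match describes these letters and not a bound site. Entries were found for 4 of the 5 genes.

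The signalling partners of these receptors were compared from a list of 17 genes, all of which were tested. None was called by edgeR, and 0 had an unadjusted p under 0.05, with 13 lower, 4 higher and a median log2 fold change of -0.06. Fcer1g, the gamma chain that PIR-A proteins need at the surface, was at 188 ± 7.69 CPM in WT (SD, n = 3) and 186 ± 16.8 CPM in Fpr2KO (SD, n = 4). The smallest p-values belonged to the adaptor Blnk (-0.19), the kinase Syk (-0.19), the phosphatase gene Ptpn6, which encodes SHP-1 (-0.15), and the phosphatase Inpp5d (-0.18), none of which passed. Of 11 genes for ligands of these receptors, 10 were tested, with 5 lower, 5 higher and a median of 0.0. The smallest p-values among them were those of the integrin chains Itgav (0.22) and Itgb3 (-0.31), of Mag (0.23) and of B2m (0.11), the light chain of MHC class I, and edgeR called none, with 0 at an unadjusted p under 0.05.

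Other receptors with ITIM motifs were represented by 16 tested genes, of which edgeR called 0 and 2 had an unadjusted p under 0.05. Their median was -0.08, with 13 lower and 3 higher. Lair1 was at 66.0, 72.5 and 72.1 CPM in WT and 87.1, 92.9, 91.6 and 86.0 CPM in Fpr2KO, without overlap. The sialic acid receptor Cd33 was at -0.77 (SE 0.31), Cd300lf at -0.64 (SE 0.27) and Ceacam1 at -0.17 (SE 0.09). The groups overlapped for Cd33, Cd300lf and Ceacam1. WT replicate 1 was highest for Cd33 (158, 91.7 and 62.8 CPM in WT) and for Cd300lf (111, 77.7 and 48.1 CPM in WT). Other activating receptors that pair with ITAM chains gave 19 tested genes, 12 lower and 7 higher, with a median of -0.15. None of them was called by edgeR, while 8 had an unadjusted p under 0.05 (5 lower, 3 higher) beside 4.98% of all genes tested. They included the C-type lectins Clec5a (-0.86, SE 0.19; edgeR adjusted p = 0.479) and Clec4e (-1.31, SE 0.26; edgeR adjusted p = 0.479), Tarm1, and the natural killer cell receptor Ncr1 at 0.50 (SE 0.13; edgeR adjusted p = 0.546).

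Marker genes of other cell types were read in the same fit. All 12 neutrophil markers had a negative log2 fold change, with a median of -1.04, and 8 had an unadjusted p under 0.05, while edgeR called 0. Their summed level was 3898 to 4844 CPM in WT and 1460 to 2886 CPM in Fpr2KO, without overlap. S100a9 was the largest part of this sum in every library, and taken singly 5 of the 12 markers were without overlap. All 8 basophil and mast cell markers were also below 0, with a median of -1.32, 0 called and 7 at an unadjusted p under 0.05, and sums of 82.7 to 138.1 CPM against 37.7 to 58.3 CPM. Hdc was the largest part of these sums, at 110, 52.4 and 43.3 CPM in WT. Singly, 4 of the 8 were without overlap, while Mcpt8 and Prss34 overlapped and Gata2 was at -0.08. Over all genes tested, 4.98% had an unadjusted p under 0.05 and 5.91% were without overlap. No marker on either list was at 0 in every library. Summed monocyte markers were at 1508 to 1590 CPM in WT and 1179 to 1466 CPM in Fpr2KO, without overlap, with a median log2 fold change of 0.02. Summed natural killer cell markers were higher in Fpr2KO, at 165.3 to 173.8 CPM against 144.6 to 153.2 CPM in WT, without overlap. Their median was 0.13, edgeR called 0 of the 6, and 2 had an unadjusted p under 0.05. Median differences were 0.05 for red pulp macrophages, -0.01 for B cells, 0.12 for conventional dendritic cells, 0.21 for plasmacytoid dendritic cells and 0.05 for T cells. Of 7 eosinophil markers, 4 were lower and 3 higher or level, with a median of -0.56, 0 called by edgeR, 4 at an unadjusted p under 0.05, and sums of 231.9 to 606.3 CPM in WT and 305.2 to 360.2 CPM in Fpr2KO, which overlapped. Medians were -0.32 for plasma cells and -0.27 for platelets. In whole spleen RNA, fewer cells of a type and less RNA per cell cannot be told apart. The part of these marker differences in the level of Pira2 was not tested.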

How the data were processed

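The deposited values are raw read counts per Ensembl gene, made by the authors for 3 WT and 4 Fpr2KO spleen libraries. The submitters' processing notes name FastQC 0.10.1, HTSeq 0.10.0 and the mouse build mm10 (GRCm38), and the labels' protocols name a Qiagen RNeasy kit for RNA and a NEBNext Ultra II kit for the libraries. The aligner, annotation release, strand setting and read length are not given in the sources used here. All rows named a gene. Gene IDs were matched to GENCODE M21: 52133 matched, with 99.8% of the counts, and 3281 did not.

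The genotypes were compared in R 4.3.3 with edgeR 4.0.16 (TMM, filterByExpr, robust quasi-likelihood F test, Benjamini-Hochberg adjustment over all 16089 genes tested, threshold 0.05). Log2 fold changes are Fpr2KO minus WT. This test was also tried on simulated data with 50 genes changed at each fold, where it recovered 16% of 1.5-fold and 78% of 2-fold changes. Of its 154 calls there, 14 were false. In the real data edgeR called only 6 genes, which makes the adjusted threshold stricter than in the simulation. The shares recovered may thus be too high for the real data, and a gene not called is not shown to be unchanged. The libraries are numbered without being said to come from separate animals, so a p-value here reflects only how these libraries vary, which may be technical. Depth sets the precision: 3 counts correspond to 0.156 to 0.201 CPM, and this floor covers counting error only, because no molecular identifiers are named and reads can be copies of 1 molecule.

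Sequences came from GENCODE M21 transcripts and RefSeq promoters. A window counts as shared when another gene's transcript holds the same bases. The planned protein identity was not computed and transcript identity was used instead. The members and gene lists were chosen with earlier results of these data known. Genes named are the listed receptors, others whose symbol begins with Pira or Lilr, up to 4 of each list and of the neighbours with the smallest p, and the 5 most like Pira2 over the libraries. The Gm genes between Pirb and Lilra6, Gm49339 and Fcer1g were named after their values were seen. Alternatives were other scalings and filters, DESeq2 1.42.0, limma 3.58.1 voom, libraries left out, a replicate block and summed copies.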

Additional observations from a re-analysis of the deposited data

Results flagged for a closer look

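Gm10693, a transcribed pseudogene of the same cluster that was too low to be tested, had 2 reads in Fpr2KO replicate 1, a level of 0.118 CPM, and 0 reads in the other 3 Fpr2KO libraries. It was marked because 1 library stood apart from 3 equal ones. The WT libraries held 4, 8 and 4 reads. The value in Fpr2KO replicate 1 is below the limit that a count of 0 allows. With the other 3 libraries tied at 0, any read in the fourth would be marked, so this mark carries no weight of its own.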

How the results depend on the processing

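The count of genes called by edgeR was 6. It was 21 with no filter on low counts (19 lower, 2 higher), 58 with DESeq2 (48 lower, 10 higher) and 5 to 15 when 1 library was left out, of which 10 without WT replicate 1 and 15 without WT replicate 3. RLE scaling, upper-quartile scaling and a filter of 1 CPM in 3 libraries each gave 6, and limma-voom gave 8. Of the listed receptor genes, 1 was called (Pira2). The number was 0 without both Fpr2KO replicates 1 and 2, and 0 to 1 when 1 library was left out, being 1 only without WT replicate 3.

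Pira2 stayed between -1.20 and -0.98 in all 15 settings that count it alone, with adjusted p from 5.28e-09 (DESeq2) to 0.618 (edgeR with a replicate block). With the replicate number as a block, 2 genes and 0 of the receptor genes were called, and Pira2 was at -1.12. The libraries share only a number: same-numbered pairs correlated at 0.08, -0.43 and -0.07 in their deviations from the group means, and not every library correlated best with its own number. Pirb ran from -0.32 to 0.01, Lilra6 from -0.57 to 0.22, Lilrb4a from -0.79 to -0.02 and Lilra5 from 0.08 to 0.25. Lilra6 was also above 0 with limma-voom, at 0.06. The cause of these changes was not tested. With 13.5% of the Pira2 windows specific at 100 bases, the split of reads between Pira2 and its copies is uncertain, and its effect on the level of Pira2 was not tested. The groups hold only 3 and 4 libraries.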
